A study of Mus musculus with 2 samples.

Results

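The cyclins, kinases and E2F factors of the G1 phase were compared between LM8 and Dunn, 2 mouse osteosarcoma cell lines. The group holds 10 genes, namely the D cyclins Ccnd1, Ccnd2 and Ccnd3, the E cyclins Ccne1 and Ccne2, the kinases Cdk2, Cdk4 and Cdk6, and the transcription factors E2f1 and E2f3, out of 18193 named genes. Its members were the probe sets whose only gene symbol in the platform annotation is one of these names, which gave 29 probe sets of 45037 that are not controls. LM8 is the subline, labelled highly metastatic, and was derived from Dunn. Dunn is the parental line, labelled non-metastatic. Both were untreated and shared a culture medium containing 1% non-essential amino acids and 10% fetal bovine serum. Each line was measured as 1 culture on 1 Affymetrix array that took 10 µg of total RNA, so a difference below compares these 2 arrays, has no replicate check and carries no p-value.

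Progress through G1 depends on D cyclins, which are made in response to growth factors and activate Cdk4 and Cdk6. These kinases phosphorylate the retinoblastoma protein and its relatives, which otherwise hold E2F factors inactive. Freed E2F factors switch on genes for S phase, among them those of the E cyclins and of E2F1 itself, and cyclin E with Cdk2 completes the phosphorylation and helps to start DNA replication. Deregulation of this pathway is common in tumours, osteosarcoma included.

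LM8 exceeded Dunn by 2-fold or more for 3 of the 10 genes, no gene was lower by that much, and 7 differed by less. E2f1 was 3.04-fold, Ccnd2 2.25-fold and Ccne1 2.07-fold higher in LM8, each on its brightest probe set. Ccnd1 was slightly lower in LM8 on all 3 probe sets and Cdk6 on 2 of its 3, and Cdk4 and E2f3 lay close to equal signals. Over 11830 measured genes, the share higher in LM8 by 2-fold or more was 6.51%, and the share lower by as much was 8.84%. The median log2 ratio of LM8 over Dunn was 0.26 over the 10 genes, beside -0.08 over all measured genes. In RNA from whole cultures, more cells in a cycle phase and more RNA per cell cannot be told apart.

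A signal here is the linear brightness that the authors computed for a probe set. Each array's floor was its median signal, 18.96 for LM8 and 21.06 for Dunn, and for ratios a lower signal was set to the floor. A probe set was measured if it lay above the floor on at least 1 array. By this rule all 10 genes were measured, on 25 of their 29 probe sets. Of these 25, 8 were past 2-fold with LM8 higher and none with LM8 lower. Over 25144 measured probe sets, 5.91% and 7.79% were higher and lower by that much. The 8 are repeat readings of few genes, with 5 of Ccnd2, 2 of E2f1 and 1 of Ccne1. Between measured probe sets of the same gene the SD of the log2 ratio had a median of 0.30 over 5521 genes. That SD reflects how probe sets differ and is no replicate error.

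Both arrays shared a day of hybridisation and a day of scanning, per the experiment sheets. Of 7 osteoblast lineage markers 6 were measured, and Ibsp alone was 2-fold apart, lower in LM8. Summed signals, taken before any floor, of these 6 were 18714 in LM8 and 18640 in Dunn. Of 16 markers of leukocytes, endothelium, epithelium and skeletal muscle, 9 were measured, none was 2-fold higher in LM8, and Csf1r and Vwf were 2-fold lower. For Csf1r that was its brightest probe set, with a log2 ratio of -1.49. A dimmer one had -0.32 as a bound, and another was higher in LM8, by at least 0.48. The 4 measured leukocyte markers likewise summed to 93.0 in LM8 and 188.5 in Dunn, with Cd68 and Adgre1 under the LM8 floor, while Ptprc, Pecam1, Cdh1 and Myog lay under both floors. Their part in the differences below was not tested. Of all genes past 2-fold, 42.4% were higher in LM8, a share that became 56.9% after median centring and 65.9% after scaling to bacterial hybridisation controls. The median of all genes was 0.07 and 0.16 in those scalings.

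**Figure D1:**
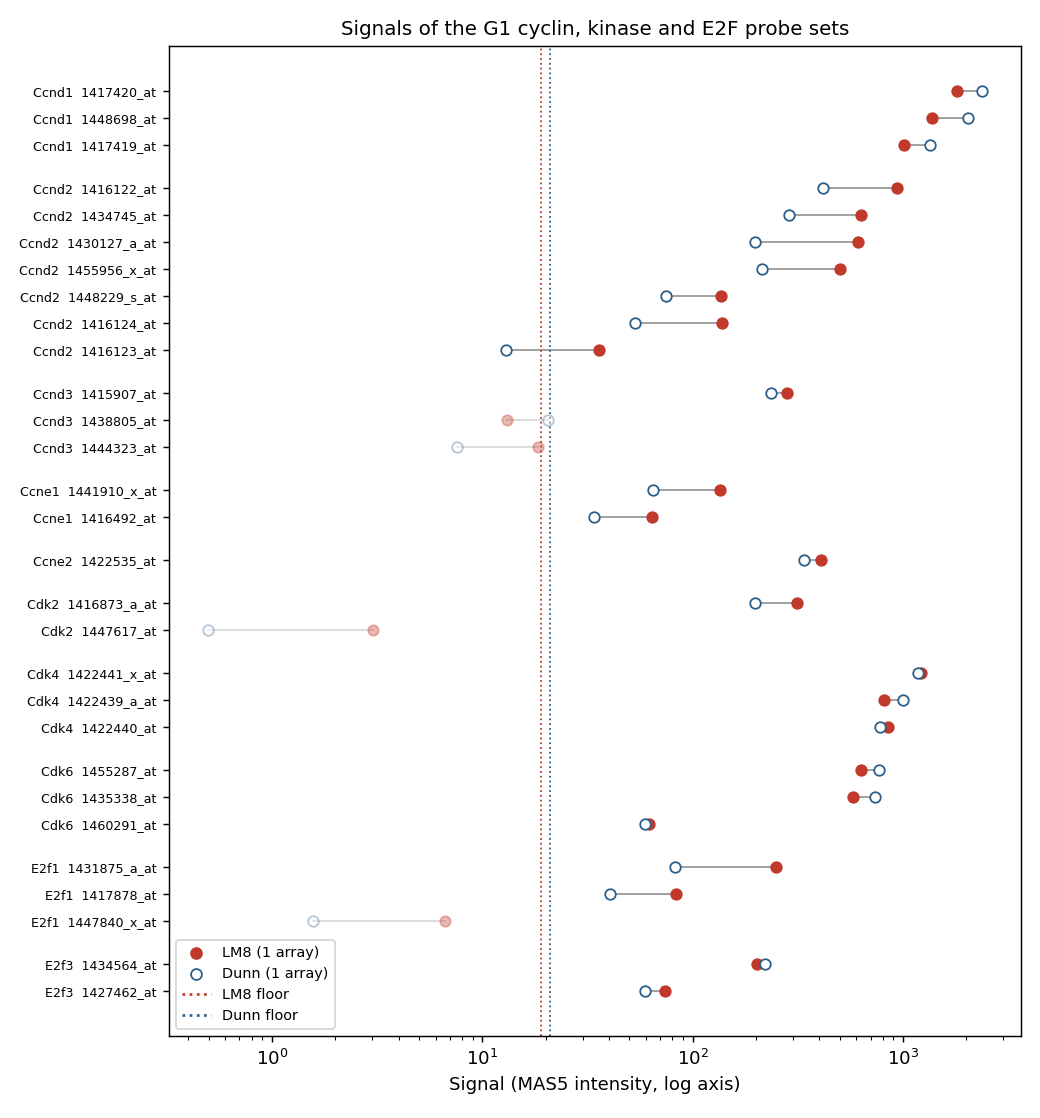
Signals of the 29 probe sets of the 10 genes on a log axis, with filled points for LM8 and open points for Dunn, 1 array each. Dotted lines mark the floors of 18.96 (LM8) and 21.06 (Dunn), and pale rows are the 4 probe sets under both floors. All 7 rows of Ccnd2 have LM8 to the right of Dunn, and all 3 rows of Ccnd1 have it to the left.

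The D cyclins differed among themselves. Ccnd2, the D cyclin gene on which growth of ovarian granulosa cells depends in mice, was higher in LM8 on all 7 of its probe sets. The brightest had a signal of 934 in LM8, against 415 in Dunn, a log2 ratio of 1.17. The next read 632 in LM8 and 285 in Dunn, and 2 more read 611 and 499 in LM8 and 196.8 and 212 in Dunn. Those 4 gave log2 ratios between 1.15 and 1.63, so each was past 2-fold. Of the 3 dimmer ones, 1 was also past 2-fold, with 138 in LM8 and 53.4 in Dunn. Another had 135 in LM8 and 74.9 in Dunn, a 1.81-fold difference. The dimmest had 36.0 in LM8 and lay under the floor in Dunn at 12.97, which makes it at least 1.71-fold higher in LM8. The SD of the 7 log2 ratios, the last of them at its bound, was 0.29. By their suffixes, the probe sets at 499 and 135 in LM8 can also match other transcripts. The one at 611 in LM8, with the largest ratio, is for alternative forms of the gene.

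Ccnd1 encodes cyclin D1, the D cyclin most often amplified in human tumours. Its signals were 1799.5, 1374 and 1009.8 in LM8 on 3 probe sets, against 2367, 2029.5 and 1343 in Dunn. LM8 was lower on all 3, by 1.32-fold, 1.48-fold and 1.33-fold. None passed 2-fold, and the SD of the 3 log2 ratios was 0.09. Ccnd3, the remaining D cyclin gene, had 1 measured probe set, with 279.9 in LM8 and 235 in Dunn, a log2 ratio of 0.25. Its other 2 probe sets lay under both floors, so Ccnd3 rests on a single reading.

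Scaling of whole arrays cancels when the log2 ratios of 2 genes are subtracted, so the members were also set against each other. The LM8 over Dunn log2 ratio of Ccnd2 exceeded that of Ccnd1 by 1.57, a 2.96-fold shift of Ccnd2 relative to Ccnd1. Leaving out the Ccnd2 probe set under the floor in Dunn, whose ratio is a bound, each of 18 pairings of a Ccnd2 with a Ccnd1 probe set gave a positive difference, from 1.25 to 2.20. Against Ccnd3 the difference was 0.92, and the 6 such pairings lay between 0.61 and 1.38. These pairings share probe sets and arrays, so they describe agreement between probes only. Across 11 alternative ways of processing, the Ccnd2 to Ccnd1 difference ran from 1.49 to 1.63. The Ccnd2 to Ccnd3 difference ran from 0.89 to 1.32. Its highest value came with the median over all probe sets, where the unmeasured Ccnd3 probe sets enter at the floors. Scaling by a single factor per array cannot change these differences, and a higher or lower floor left them at 1.57 and 0.92. The narrow ranges are thus in part fixed by construction.

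The E cyclins bind Cdk2 late in G1. Ccne1 was higher in LM8 on both probe sets. The brighter read 134.5 in LM8 and 64.9 in Dunn, a log2 ratio of 1.05, and the dimmer read 64.3 in LM8 and 33.8 in Dunn, a log2 ratio of 0.93. The pair straddled the 2-fold line, and the brighter one carries a suffix for probes that can also match other transcripts. In 5 of 11 alternatives Ccne1 lay under 2-fold, down to 0.49 with the floor at the 75th percentile. Ccne2, which encodes the second E cyclin, had 407 in LM8 and 337 in Dunn on its only probe set, a log2 ratio of 0.27. The log2 ratio of Ccne1 exceeded that of Ccne2 by 0.78, or by 0.65 with the dimmer Ccne1 probe set. That difference ran from 0.22, with the floor at the 75th percentile, to 0.88 over the 11 alternatives.

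The promoter window of Ccne1, 250 bases before to 50 after the start site in RefSeq (GRCm38.p6), lies at chr7:38107441-38107740 on the minus strand. It is shown because Ccne1 is an E2F-responsive gene past 2-fold here, and it is very rich in G and C (76.0%). None of the words searched was found in it, so it has no capitals. That says only that these letters are not in this window.
Ccne1: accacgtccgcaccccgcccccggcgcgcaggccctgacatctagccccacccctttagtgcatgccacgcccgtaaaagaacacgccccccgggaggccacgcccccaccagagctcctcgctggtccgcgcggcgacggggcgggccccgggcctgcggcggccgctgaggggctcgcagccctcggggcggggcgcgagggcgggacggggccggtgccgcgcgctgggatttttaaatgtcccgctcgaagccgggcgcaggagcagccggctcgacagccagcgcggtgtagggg

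The words searched in such windows, on both strands, were the E2F words TTTCGCGC, TTTGGCGC, TTTCCCGC and TTTGCCGC, the E-box CACGTG bound by Myc and its partners, the AP-1 word TGAGTCA and the cyclic AMP response word TGACGTCA. No E2F word overlaps another kind of word in the member windows. Windows were given for 7 of the 10 genes, 9 windows in all, and not for Ccnd1, Ccnd2 and Ccne2. The 9 include an E2f1 window whose start site lies 465 bases inside the gene, so no base upstream of E2f1 was searched. An E2F word stood in 2 of the 9, beside 2.26% of all 32851 windows. An E-box stood in 3 of the 9, beside 7.15% of all windows. The AP-1 word and the cyclic AMP word, found in 5.20% and 1.79% of all windows, stood in none of the 9.

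None of the 3 kinases was past 2-fold. Cdk2, the partner of the E cyclins, had 313 in LM8 and 197.9 in Dunn on its measured probe set, a 1.58-fold difference (log2 ratio 0.66). That stands above 87.1% of all measured genes but under the 2-fold line, and the other Cdk2 probe set lay under both floors. Cdk4, a partner of the D cyclins, had signals of 1219, 809.7 and 849 in LM8 on 3 probe sets, against 1180.05, 996 and 781 in Dunn. LM8 was higher on 2 of them and lower on 1, with log2 ratios of 0.05, -0.30 and 0.12, so Cdk4 had no direction. Its 3 probe sets include 1 that can match other transcripts and 1 for alternative forms of the gene.

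Cdk6, the other partner of the D cyclins, was lower in LM8 on its 2 bright probe sets, with 634 and 581 in LM8 and 764 and 738 in Dunn. The log2 ratios were -0.27 and -0.35, both under 2-fold. A dimmer probe set read 62.0 in LM8 and 59.6 in Dunn, so the 3 did not all run the same way. The log2 ratio of Cdk2 exceeded those of Cdk4 and Cdk6 by 0.61 and 0.93, and was the higher one in all 3 pairings of probe sets with each. With the median over all probe sets, where the unmeasured Cdk2 probe set enters at the floors, Cdk2 had a log2 ratio of 0.25 and the differences shrank to 0.21 and 0.52. Over the 11 alternatives their highest values were both 0.96.

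Windows of Cdk2 and Cdk4, both on chromosome 10, are shown with the matched words in capitals because they differ in which words they hold. The Cdk2 window at chr10:128705002-128705301, minus strand, has 1 E2F word, on the opposite strand, starting 140 bases before the start site. The Cdk4 window at chr10:127063285-127063584, plus strand, has 4 E-boxes, which start 172, 118, 98 and 11 bases before the start site. Cdk4 is a known Myc target.
Cdk2: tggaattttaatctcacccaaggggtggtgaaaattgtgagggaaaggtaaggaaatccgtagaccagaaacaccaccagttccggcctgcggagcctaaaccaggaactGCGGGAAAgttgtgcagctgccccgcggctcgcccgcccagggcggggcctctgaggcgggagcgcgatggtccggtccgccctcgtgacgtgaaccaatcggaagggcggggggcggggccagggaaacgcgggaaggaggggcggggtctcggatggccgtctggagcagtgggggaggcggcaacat
Cdk4: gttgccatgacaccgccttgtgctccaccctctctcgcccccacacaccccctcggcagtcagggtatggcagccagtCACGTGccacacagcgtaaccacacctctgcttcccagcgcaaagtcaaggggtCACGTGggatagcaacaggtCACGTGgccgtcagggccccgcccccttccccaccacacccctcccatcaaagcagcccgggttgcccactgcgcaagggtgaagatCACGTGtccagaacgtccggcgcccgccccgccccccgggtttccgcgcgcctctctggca

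Of the transcription factors, E2f1 had the largest difference of the 10 genes when each was read on its brightest probe set. With the median over all probe sets, where the unmeasured E2f1 probe set enters at the floors, Ccnd2 (1.17) stood above E2f1 (1.04). With the measured probe sets averaged, E2f1 (1.32) stood above Ccnd2 (1.17). E2F1 is an activating E2F that both drives S phase genes and responds to E2F itself. Its brightest probe set, 1 for alternative forms of the gene, read 249 in LM8 and 82.0 in Dunn, a log2 ratio of 1.60. The next read 83.1 in LM8 and 40.4 in Dunn, a log2 ratio of 1.04. Both were past 2-fold, and a further probe set lay under both floors. Their 2 log2 ratios had an SD of 0.40, wider than the median of 0.30 between probe sets of a gene. E2f1 stayed past 2-fold in all 11 alternatives, from 1.04 with the median over all its probe sets to 1.85 with scaling on the hybridisation controls.

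E2f3, another activating E2F, read 201.7 in LM8 and 220.4 in Dunn on the brighter probe set, a log2 ratio of -0.13. The dimmer read 73.4 in LM8 and 59.0 in Dunn, a log2 ratio of 0.32. The probe sets ran opposite ways, and the sign of the gene's value changed in 4 of 11 alternatives, so E2f3 had no direction. The log2 ratio of E2f1 exceeded that of E2f3 by 1.73 on the brightest probe sets and by at least 0.73 in all 4 pairings. That difference was 0.95 with the median over all probe sets, where the unmeasured E2f1 probe set enters at the floors. Its highest value in the 11 alternatives was 1.77. RefSeq gives E2f3 a pair of start sites. The window of the upstream one, at chr13:29986014-29986313 on the minus strand, is shown because it holds the other E2F word (in capitals), 11 bases before the start site on the opposite strand. The E2f1 window is not printed, since its start site lies 465 bases inside the gene.
E2f3: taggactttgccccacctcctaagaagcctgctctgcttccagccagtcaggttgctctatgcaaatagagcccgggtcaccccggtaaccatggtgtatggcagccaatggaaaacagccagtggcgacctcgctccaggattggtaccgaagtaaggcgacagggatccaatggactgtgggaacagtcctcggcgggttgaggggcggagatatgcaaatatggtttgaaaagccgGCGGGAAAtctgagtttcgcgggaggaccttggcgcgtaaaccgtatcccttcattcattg

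**Figure D2:**
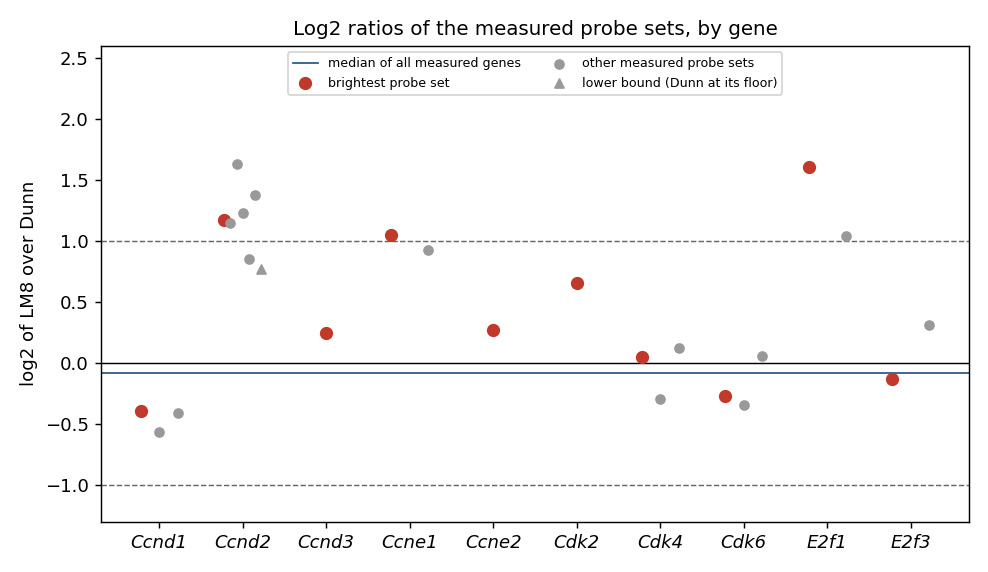
Log2 of LM8 over Dunn for the 25 measured probe sets by gene, with the brightest probe set in red, others in grey and a triangle for a lower bound. Dashed lines mark 2-fold and the blue line the median of all measured genes (-0.08). Both probe sets of E2f1, 5 of 7 of Ccnd2 and 1 of 2 of Ccne1 lie above the upper dashed line, and none lies below the lower one.

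Genes around these members were described from 6 pathway lists, beside the 6.51% and 8.84% of all genes that were 2-fold higher and lower in LM8. Of the other E2F and DP factors all 8 were measured, 2 exceeded 2-fold with LM8 higher, none with LM8 lower, and the median was 0.20. The higher ones were E2f7 and E2f8, which repress E2F targets and are themselves E2F-responsive. E2f7 had 120.2 in LM8 and 43.1 in Dunn (2.79-fold), and E2f8 had 169.5 in LM8 and 43.7 in Dunn (3.88-fold), with at least 1.49-fold on its dimmer probe set. Neither stayed past 2-fold with the floor at the 75th percentile. The activator E2f2 had log2 ratios near the middle (0.12), as did the repressors E2f4 and E2f6 (0.30 and -0.08). E2f5, a repressor, had -0.33 on its brightest probe set and 1.21 and 1.14 on the others, so its probe sets opposed each other. Of the dimerisation partners of E2F, Tfdp1 had 0.27 and Tfdp2 -0.92. The dimmer measured probe sets of Tfdp2 had -0.45 and -1.22, the latter past 2-fold with LM8 lower.

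The pocket proteins bind E2F factors and hold them in check. All 3 lay between, with log2 ratios of 0.08 for Rb1, 0.44 for Rbl1 and 0.30 for Rbl2. The dimmer probe set of Rbl1 read 125.8 in LM8 and 33.0 in Dunn, a log2 ratio of 1.93, well apart from the brighter one. Of the 7 inhibitors of G1 kinases, 5 were measured, 2 were 2-fold higher, 2 lower and 1 between. Cdkn1a, which encodes p21 and inhibits Cdk2, had 567 in LM8 and 1325 in Dunn (2.34-fold lower), and its other probe set was also past 2-fold at -1.05. Cdkn2b, an inhibitor of Cdk4 and Cdk6, had 97.1 in LM8 and 200.2 in Dunn (2.06-fold lower). With scaling on the hybridisation controls neither was past 2-fold, and Cdkn2b was not with median centring either. Cdkn2c and Cdkn2d inhibit the same kinases and went the other way, with 272 and 327 in LM8 against 122.7 and 132.0 in Dunn, or 2.22-fold and 2.48-fold higher. Cdkn1b, which encodes p27, had 184.2 in LM8 and 200.9 in Dunn, and Cdkn1c and Cdkn2a lay under both floors.

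Of 12 genes that activate G1 kinases or turn over their cyclins and inhibitors, 1 was past 2-fold with LM8 higher, none with LM8 lower, and the median was 0.19. It was Cks1b, which encodes the cofactor that lets the ligase subunit Skp2 bind p27, with 2722 in LM8 and 1135 in Dunn (2.40-fold). Its second probe set had a log2 ratio of 1.69. Skp2 itself, singled out after its values were seen, was higher in LM8 on all 6 probe sets, with log2 ratios from 0.64 to 1.41 and 0.92 on the brightest.

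Known E2F target genes had the list median farthest from 0 of the 6 lists. Of 23 listed, 22 were measured, 13 were higher in LM8 by 2-fold or more, none was lower by that much, 9 differed by less, and the median was 1.26. The count was 10 and the median just under 2-fold with probe sets averaged (0.98), the median over all probe sets (0.96) or a floor at the 75th percentile (0.99, of 21 measured), and 17 with scaling on the hybridisation controls. All 22 had a log2 ratio above 0 on the brightest probe set, beside 5285 of all 11830 measured genes. Some of the 22 had another measured probe set below 0, down to -0.19. Ccna2, the S phase cyclin gene, had 1167 in LM8 and 195 in Dunn (5.99-fold), and Cdk1, its kinase partner in mitosis, had 1439 in LM8 and 349 in Dunn (4.12-fold). Uhrf1, which maintains DNA methylation, was 3.78-fold and Pola1, the catalytic subunit of the primase polymerase, 3.53-fold higher. Of the 13, 8 had several measured probe sets, and all of these were past 2-fold for 3 genes. The higher level of cell cycle genes in LM8 was known when the list was drawn up, so the count is no independent evidence of direction. An E2F word stood in 11 of 22 promoter windows of these genes, which were on the list because E2F is known to act on them.

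Of 16 transcription factors known to act on D cyclin genes, LM8 was higher by 2-fold for 1 and lower for 2, and the median over the 16 was -0.64. That was the lowest of the settings tried, and the median was -0.49 with median centring and -0.40 with scaling on the hybridisation controls, with 1 lower gene in each. Fosl1, a Fos family subunit of AP-1, had 312 in LM8 and 27.5 in Dunn (11.3-fold), the latter near the Dunn floor of 21.06. Its other probe set, under the floor in Dunn, was at least 4.03-fold higher in LM8. Fos had 31.3 in LM8 and 67.5 in Dunn (2.16-fold lower, under 2-fold with either of the scalings named above). Egr1, an early gene of growth factor signalling, had 34.5 in LM8 and 239 in Dunn (6.94-fold lower). Myc, named after its values were seen because of the E-boxes, had 768 in LM8 and 1404 in Dunn, a log2 ratio of -0.87 that stayed under 2-fold.

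**Figure D3:**
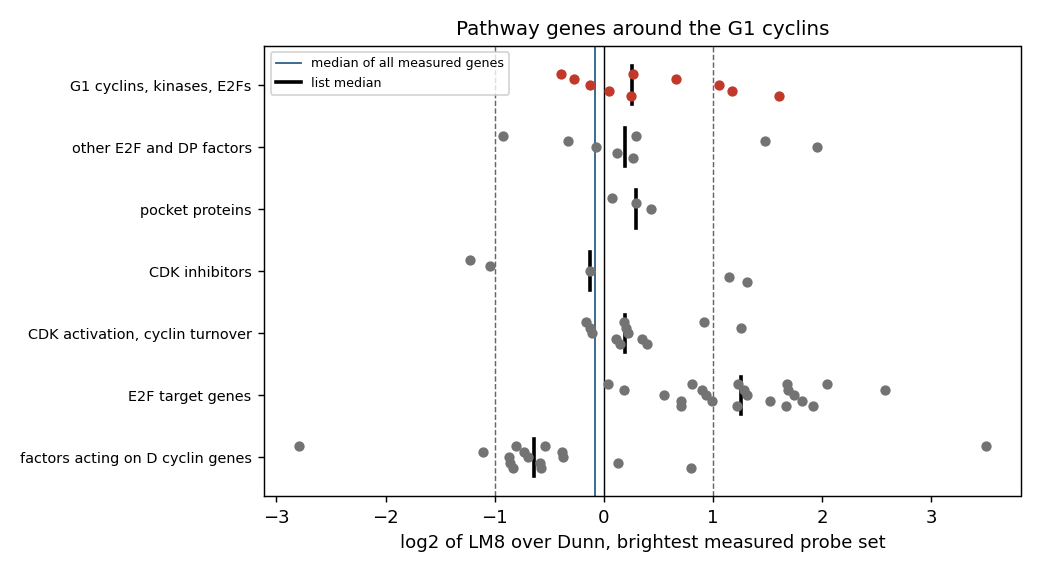
Log2 of LM8 over Dunn on the brightest measured probe set for the 10 genes (red) and the genes of 6 pathway lists (grey). Black bars are list medians, dashed lines 2-fold and the blue line the median of all measured genes (-0.08). The E2F targets lie to the right of 0 with a median of 1.26, and the factors acting on D cyclin genes lie mostly to its left with a median of -0.64.

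With 2 arrays the pattern of a gene is a single ratio, so likeness was the absolute difference in log2 ratio over those 2 arrays among 66 measured pathway genes. Nearest to E2f1 were Mybl2 and Orc1, with differences of 0.07 and 0.08 on the brightest probe sets. The dimmer probe sets had log2 ratios of at least 0.46 for Mybl2 and of 0.56 for Orc1. Nearest to Ccnd2 were Cdkn2c (0.02) and Rrm1 (0.05), and nearest to Ccne1 were Mcm4 (0.06) and Cdkn2c (0.10). Such a ratio can be shared by many unrelated genes, and each difference was below the median SD of 0.30 between probe sets of a gene.

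Position on the chromosome was examined through the next measured genes, up to 10 on each side, in the gene order of GRCm38.p6. The 20 neighbours of E2f1 had a median log2 ratio of -0.38, with none 2-fold higher in LM8. The 20 neighbours of Ccnd2 had -0.36, likewise with none 2-fold higher. Those of Ccne1 had 0.09, with 2 of 20 higher and 1 lower. For Ccnd1, which was lower in LM8, the 11 neighbours had a median of 0.25, and for Cdk6 the 10 neighbours had 0.30. Over the 10 genes, the median of the neighbours lay on the other side of 0 from the gene's brightest probe set for 6. These were E2f1, Ccnd1, Ccnd2, Ccnd3, Cdk4 and Cdk6. It lay on the same side for 4, namely Ccne1, Ccne2 (neighbours 0.27), Cdk2 (0.22) and E2f3 (-0.04). The signs of Ccnd3, Cdk4 and E2f3 changed in some alternatives, so the side on which these genes fall is not settled.

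**Figure D4:**
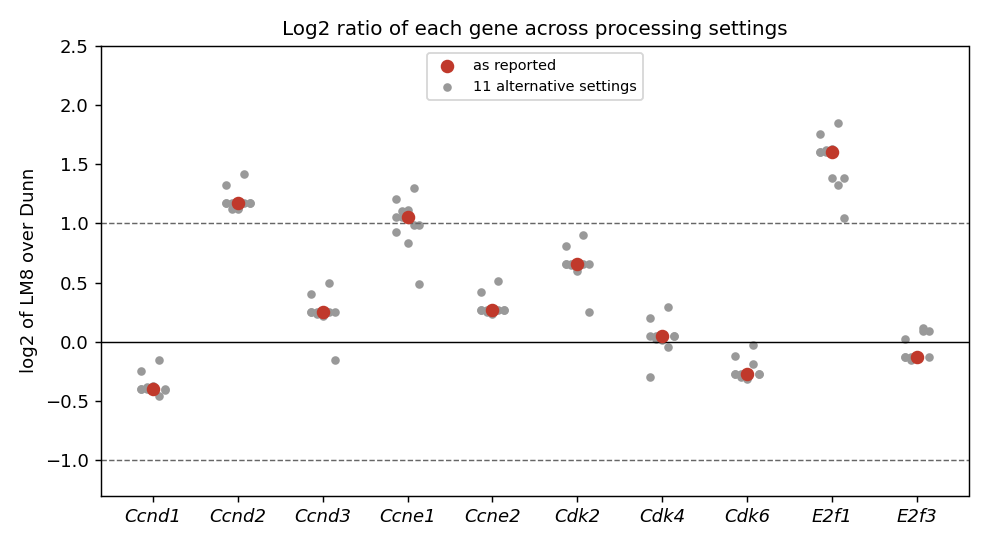
Log2 of LM8 over Dunn for each of the 10 genes as reported (red) and under 11 alternative settings (grey), with dashed lines at 2-fold. E2f1 and Ccnd2 stay above the upper dashed line, Ccne1 lies on both sides of it, and Ccnd3, Cdk4 and E2f3 cross 0.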

How the data were processed

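The authors computed probe set intensities with MAS5, per the submitters' processing notes, and deposited them on a linear scale. The MAS5 version and settings are not given in the sources used here. Per the values, each deposited array had a 2% trimmed mean of 100. The 64 control probe sets were set aside, and the other 45037 were put on a common 2% trimmed mean, a factor of 1.00 on both arrays. Signals under the array median were raised to it, and log2 of LM8 over Dunn was taken per probe set. A gene was represented by its brightest measured probe set (mean log2 signal over both arrays), and a difference was counted from 2-fold. Where 1 array lay at its floor the fold is a lower bound.

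Names came from the platform annotation (34958 probe sets with 1 symbol, 932 with several, 9160 unlisted), updated through gene identifiers in a table of GRCm38.p6, of which 99.4% matched. Members and lists were chosen with earlier results of these data known. The rule for named genes took all members, all genes of lists with 8 or fewer, up to 4 genes past 2-fold of each longer list, and the nearest genes in log2 ratio. With 1 array per line there was no test, and precision is limited by the number of arrays. Alternatives were 4 scalings, 4 treatments of dim signals, 3 gene summaries and 2 fold rules. The steps were run on simulated arrays with changes larger than those of the members, planted in bright genes only. That run checks the code and does not speak to dim genes or to replicate error. Software was matplotlib 3.10.9, statsmodels 0.14.6, scipy 1.17.1, pandas 2.3.3 and numpy 2.4.6 under Python 3.11.15.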

Additional observations from a re-analysis of the deposited data

How the results depend on the processing

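E2f1 and Ccnd2 stayed at least 2-fold higher in LM8 in all 11 alternatives of scaling, floor and gene summary. Their log2 ratios ran from 1.04 to 1.85 and from 1.12 to 1.41. Not every alternative could move them, since a lower floor left E2f1 at 1.60 and Ccnd2 at 1.17. Ccne1 lay under 2-fold with a pseudocount (0.84), a floor at the 75th percentile (0.49), probe sets averaged or their median taken (0.99 for both) and without probe sets for shared transcripts (0.93). The count of 3 higher genes was 2 in those settings, was 1 with a 3-fold rule and 4 with a 1.5-fold rule, and none of the 10 genes was 2-fold lower in any of the 13 alternatives. Their median ran from 0.17 to 0.50. Ccnd1 (-0.46 to -0.15) and Cdk6 (-0.32 to -0.03) stayed below 0. The sign changed in 4 of 11 alternatives for E2f3, 2 for Cdk4 and 1 for Ccnd3, where both unread probe sets entered at the unequal floors (-0.15). Of the E2F targets 8 were past a 3-fold rule and 19 past a 1.5-fold rule, against 13 at 2-fold. Of the factors acting on D cyclin genes, 1 to 9 were lower over the 13 alternatives, the 9 at 1.5-fold. Of all 11830 measured genes, 770 were higher and 1046 lower. Over the same genes the counts were 1237 and 639 with scaling on hybridisation controls, 1807 and 2405 at 1.5-fold, and 294 and 336 at 3-fold. With only signals under 1 raised, to 1, and no filter, they were 2494 and 3248 of 18193 genes. For a floor at the 25th percentile they were 1647 and 2494 of 16202 measured genes. A floor at the 75th percentile gave 377 and 397 of 7342 measured genes. No paired analysis was possible because each line had 1 array.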
